A study of Marmota monax with 7 samples.

Results

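Cytochromes P450 are haem enzymes that insert oxygen into drugs, alcohols, steroids and sterols, and the liver is their main site. Alcohol dehydrogenases are zinc enzymes that oxidise alcohols to aldehydes with the cofactor NAD. Both families have many closely related members, so a probe of one species can also bind transcripts of a neighbouring member in another species. The genes described here are 4 P450s (CYP2E1, CYP3A7, CYP27A1 and CYP51A1) and 2 alcohol dehydrogenases (ADH5 and ADH6). They were taken by their symbols, using every probe that the array's annotation assigns to exactly 1 of those symbols. This gave 7 probes for 6 of the 3011 genes with such a probe, out of 5544 probes on the array. CYP27A1 had 2 probes and the other 5 genes had 1 each.

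The RNA was total RNA from the liver of the adult woodchuck, Marmota monax, a rodent that carries its own hepatitis B-like virus and serves as a laboratory model for it, and the labels call the liver normal. It was hybridised to membrane arrays of human gene probes at 7 amounts, 0.1, 0.25, 0.5, 1, 2, 5 and 10 µg, with 1 array for each amount, and the question of the series is what the RNA amount does to the signal when probe and RNA differ in species. No treatment or genotype is named, and the labels do not say whether RNA of several animals was pooled. Nothing in the labels makes the arrays separate animals or preparations, so the p-values given here measure only the scatter of 7 arrays about a line, and that number limits the precision.

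The deposited numbers are linear spot intensities, and every array carried background. The lower percentile of 1 of all probes, used here as the background, ran from 1329 at 0.1 µg to 3781.9 at 5 µg and was 3549.9 at 10 µg, while the array median ran from 1629 to 16520 (at 5 µg). Among 113 pairs of probes that share a sequence accession, the Spearman correlation of their places in the order of mean signal was -0.0610, so a probe's signal could not be predicted from that of another probe of the same name. For part of the probes the pairing of probe numbers with gene names may therefore be wrong, which was not tested, and a gene name here is the one the annotation gives. Each value below is that of 1 named probe and does not rank the transcripts of different genes. As a check of the tissue, 8 probes of 7 hepatocyte genes were measured. They ranged at 10 µg from 6437 for a probe of FGB, the fibrinogen beta chain, to 6312172 for APOB, the protein of very-low-density lipoprotein. TF, transferrin (9140), and AHSG, fetuin A (7660), lay below the array median of 16151.5 at this amount. The 8 probes of genes of bile duct, endothelium, macrophages and stellate cells ranged from 4655 (KRT7) to 1161392 (COL1A2), so markers of both kinds were found bright and dim.

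CYP2E1 oxidises ethanol and small solvents in the hepatocyte. Its probe (number 1784) read 3418, 5177, 10855, 22116, 57774, 462166 and 495678 from 0.1 to 10 µg. The signal was higher at each larger amount, and the difference between the extremes was 145-fold for 100-fold more RNA. After subtraction of the background of each array that difference was 236-fold. The probe stood between percentiles 92.3 and 92.8 of its array at every amount, so its place among the probes hardly moved over the whole titration.

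CYP3A7 is the main form of the CYP3A family in the human fetal liver, and the human CYP3A genes are alike enough that other CYP3A transcripts may bind its probe, which was not tested. This probe (250) read 16976, 24197, 85840, 173395, 604662, 3798483 and 3031742. It was highest at 5 µg and lower at 10 µg, a step of 0.798-fold where the median of all probes was 1.07-fold. From 0.25 to 0.5 µg it rose 3.55-fold for 2-fold more RNA, a step at percentile 99.9 of all probes, between 2 arrays with no replicate.

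CYP27A1 is a mitochondrial sterol hydroxylase that starts the acidic route of bile acid formation. The annotation gives both of its probes the same accession, yet they read very differently. Probe 2378 read 21026, 42305, 83545, 276656, 987877, 4771186 and 4960055, and stood at percentile 98.5 or above on all 7 arrays. Probe 2957 read 1501, 2129, 3110, 5126, 10880, 27000 and 47636. At 0.1 µg it was 1.13 times the background and at percentile 23.3 of the array, and on the other 6 arrays it lay between percentiles 63.7 and 80.9. Both probes were higher at each larger amount.

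CYP51A1 demethylates lanosterol in cholesterol synthesis and is made in nearly all tissues. Its probe (13) read 1503, 1782, 2637, 2535, 3414, 16077 and 12670. It stayed between 1.13 and 1.66 times the background up to 2 µg and reached 4.25 times at 5 µg. The values at 1 µg and at 10 µg were each below that of the next smaller amount.

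ADH5 is the glutathione-dependent formaldehyde dehydrogenase found in all tissues. Its probe (1412) read 7176, 9556, 26986, 68329, 197632, 654759 and 1678888. It differed from the other bright probes at the last step, where it rose 2.56-fold from 5 to 10 µg, a step at percentile 98.2 of all probes. Over the same step CYP2E1 rose 1.07-fold and the bright CYP27A1 probe 1.04-fold. In the step before, from 2 to 5 µg, ADH5 rose 3.31-fold, at percentile 45.7 of all probes, and at 5 µg it had its lowest place, percentile 93.6. Each step is between 2 arrays with no replicate, so a low value at 5 µg cannot be told from a high one at 10 µg.

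ADH6 is an alcohol dehydrogenase known mainly from the human liver. Its probe (5240) read 5848, 1665, 1929, 2523, 2187, 4476 and 5008. The highest value was that of the smallest amount, at percentile 94.9 of its array, and on the other 6 arrays the probe was at percentile 30.3 or below. From 0.25 to 10 µg it read between 1.03 and 1.41 times the background, against 4.40 times at 0.1 µg. The step from 0.1 to 0.25 µg was 0.285-fold, the lowest among the 5544 probes.

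**Figure D1:**
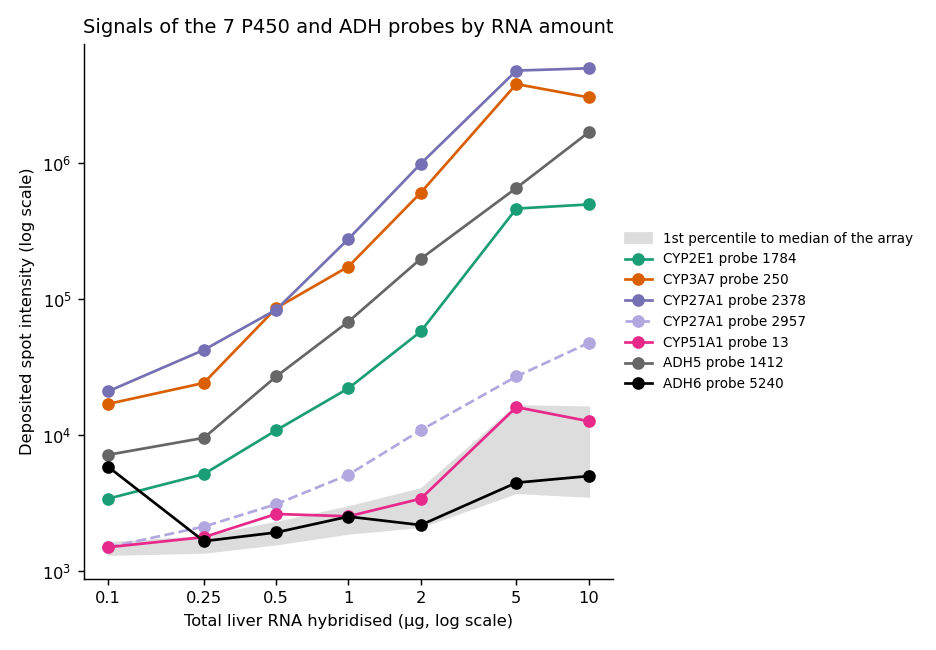
Deposited spot intensity (log scale) of the 7 probes against the amount of RNA (log scale), 1 array for each point; the grey band runs from the lower percentile of 1 to the median of each array. CYP2E1, CYP3A7, ADH5 and probe 2378 of CYP27A1 lie above the band throughout, while CYP51A1 follows it and ADH6 lies above it only at 0.1 µg.

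**Figure D2:**
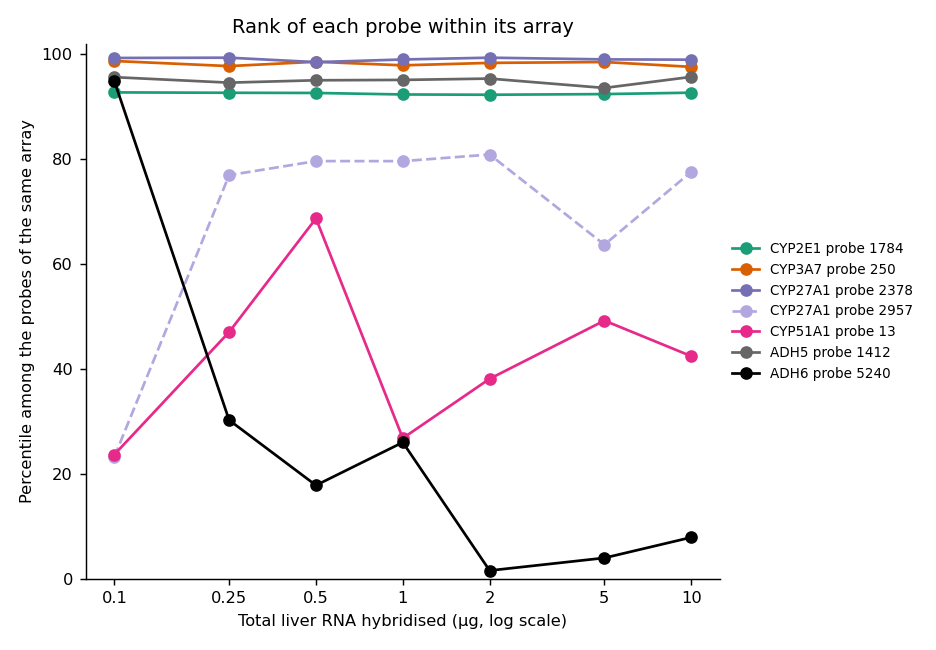
Percentile of each probe among the 5544 probes of the same array, against the amount of RNA (log scale). CYP2E1 stays between 92.3 and 92.8, whereas ADH6 goes from 94.9 at 0.1 µg to 1.57 at 2 µg.

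With 1 array at each amount there is no spread at an amount. Neighbouring amounts were therefore set beside the scatter about the fitted line of the unscaled signals. That scatter is not the spread of repeated arrays, since it also holds departures from a line that whole arrays share. Relative to the array median it was 0.24 log2 units for CYP2E1 and 0.18 for CYP51A1, against 0.68 and 0.59 without scaling. For ADH5 it was 0.46 against 0.45. Without scaling the scatter was 0.68 log2 units for CYP2E1 and CYP3A7, a factor of 1.60 and 1.61. Values at 0.1 and 0.25 µg, and at 5 and 10 µg, differed by less than that for both probes. For ADH5 the amounts of 0.1 and 0.25 µg, and for probe 2378 of CYP27A1 those of 5 and 10 µg, were the one pair of neighbours within the scatter. For probe 2957 of CYP27A1 no pair was. For CYP51A1 5 of 6 neighbouring pairs were within the scatter, all except 2 and 5 µg, and for ADH6 4 of 6 were.

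The slope of log2 signal on log2 amount, in which 1 is signal in proportion to RNA, was fitted for all probes with limma. Without scaling 6 of the 7 probes rose and 0 fell (limma, Benjamini-Hochberg 0.05, also 0 at an unadjusted p under 0.05 and 0 by exact permutation), against 99.9% of all probes that rose. The share among these enzymes thus says little about them. The slope was 1.21 ± 0.10 (SE over 7 arrays) for CYP2E1, 1.30 ± 0.10 for CYP3A7, 1.33 ± 0.09 and 0.79 ± 0.08 for probes 2378 and 2957 of CYP27A1, 0.53 ± 0.10 for CYP51A1 and 1.26 ± 0.09 for ADH5. Limma's adjusted p was at most 0.000217 for these 6, and the exact permutation of the 7 arrays, adjusted over all probes, gave at most 0.00253. For ADH6 the slope was 0.07 ± 0.11 (limma adjusted p = 0.516), the lowest of all 5544 probes. It rested on the array of 0.1 µg, since without that array ADH6 rose with a slope of 0.31 ± 0.08 (limma adjusted p = 0.00505).

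Relative to the median of each array, 5 of the 7 probes rose and 1 fell, against 33.9% and 30.9% of all probes, but 0 rose with quantile normalization, cyclic loess or scaling by the median absolute deviation. The 5 that rose were CYP2E1 (0.65 ± 0.05 log2 units per doubling of RNA), CYP3A7 (0.74 ± 0.07), ADH5 (0.70 ± 0.07) and both CYP27A1 probes (0.77 ± 0.07 for probe 2378 and 0.22 ± 0.06 for probe 2957). Their limma adjusted p was at most 0.00493. With the 75th percentile probe 2957 no longer passed (-0.00075, limma adjusted p = 0.993) and the other 4 did, against 15.4% of all probes that rose and 57.9% that fell. Under scaling by the deviation CYP2E1, CYP3A7, ADH5 and probe 2378 fell instead, as did 7.02% of all probes. CYP51A1 passed in neither direction (-0.04 ± 0.05, 95% interval -0.14 to 0.06, limma adjusted p = 0.48), but fell with the 75th percentile in place of the median (-0.26, limma adjusted p = 0.00128) and with medians taken separately in the lower and upper probe numbers (-0.15, limma adjusted p = 0.0194), where 25.2% of all probes fell. ADH6 fell (-0.49 ± 0.07, limma adjusted p = 0.000164) and still fell without the array of 0.1 µg (-0.36, limma adjusted p = 0.00226). It did not pass with quantile normalization (limma adjusted p = 0.254), cyclic loess (0.995) or the deviation (0.218).

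Across the array these slopes follow mean signal. In the brightest of 10 equal classes of probes, which holds CYP2E1, CYP3A7, ADH5 and probe 2378 of CYP27A1, the median slope relative to the array median was 0.72, with quartiles of 0.64 and 0.77, and all 555 probes rose. CYP3A7 (0.74) and ADH5 (0.70) lay between these quartiles, CYP2E1 (0.65) close to the lower and probe 2378 (0.77) close to the upper. Probe 2957 was in class 8, with a median of 0.23 and quartiles of 0.19 and 0.27, and CYP51A1 in class 5, with -0.03 and quartiles of -0.06 and 0.0033. ADH6, in class 3, was the exception, since its -0.49 lay far below the class quartiles of -0.20 and -0.13. Both its class and its slope include the array of 0.1 µg, where it stood at percentile 94.9. Without that array its slope was -0.36, and the lower quartile of the dimmest class over all arrays was -0.32. The ranking shares its arrays with the slopes, so these medians are a description.

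**Figure D3:**
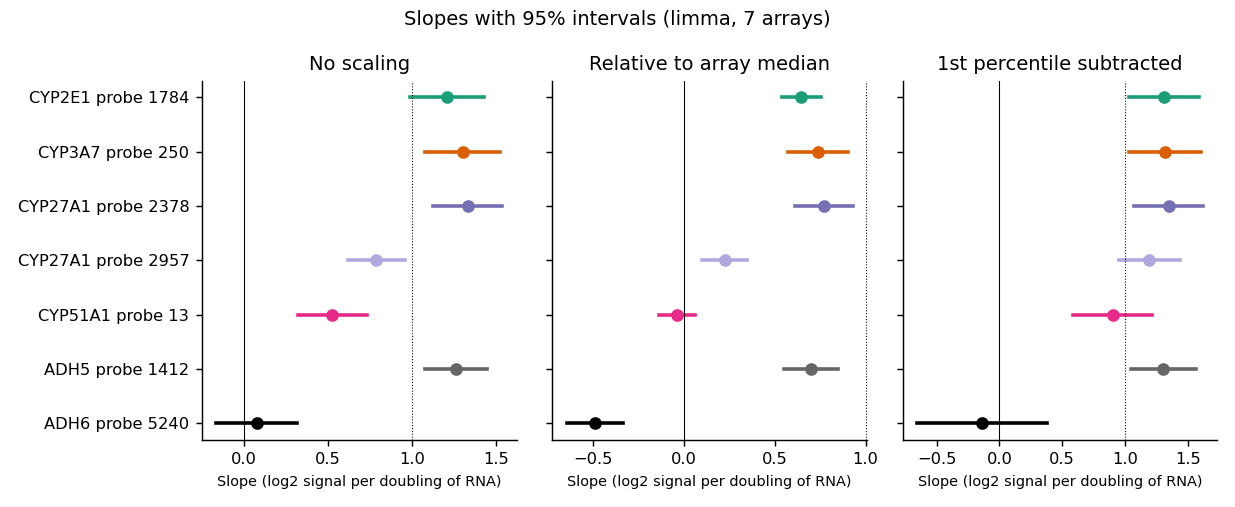
Slope of log2 signal per doubling of RNA for each probe (dots) with its 95% interval from limma over 7 arrays (bars), without scaling, relative to the array median and after subtraction of the lower percentile of 1; the solid line marks 0 and the dotted line 1. The intervals of CYP51A1 and of probe 2957 of CYP27A1 move to include 1 after the subtraction, and that of ADH6 does not.

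Subtraction of the background changed the dim probes most. Subtracted values under 100 intensity units were set to 100, which applied to ADH6 at 2 µg and to no other value of these probes. The slope of probe 2957 of CYP27A1 went from 0.79 to 1.19 ± 0.11 and that of CYP51A1 from 0.53 to 0.90 ± 0.14. The bright probes moved less, to 1.31 ± 0.13 for CYP2E1, 1.32 ± 0.13 for CYP3A7, 1.35 ± 0.13 for probe 2378 and 1.31 ± 0.12 for ADH5. Again 6 of 7 probes rose (limma adjusted p at most 8.47e-05) and 0 fell (also 0 at an unadjusted p under 0.05 and 0 by exact permutation), against 93.7% of all probes that rose. When the array median of the subtracted signals was also taken away, 4 rose and ADH6 fell, against 19.4% and 11% of all probes. CYP51A1 (0.0011, limma adjusted p = 0.994) and probe 2957 (0.29, limma adjusted p = 0.0891) then did not pass, and the other 4 slopes lay between 0.41 and 0.45. Without that step ADH6 had a slope of -0.14 ± 0.24 (limma adjusted p = 0.583), with a 95% interval from -0.66 to 0.38. Without the array of 0.1 µg it was 0.34 ± 0.22 (limma adjusted p = 0.174).

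Against a slope of 1, 0 of the 7 probes lay above by limma after adjustment, where 0.722% of all probes did. At an unadjusted p under 0.05 there were 4, against 12.6% of all probes, namely CYP2E1 (95% interval 1.03 to 1.59), CYP3A7 (1.03 to 1.61), probe 2378 (1.07 to 1.62) and ADH5 (1.05 to 1.56). Their adjusted p ran from 0.0807 to 0.112, and with a variance that follows mean signal all 4 passed (limma adjusted p from 0.0202 to 0.0401), as did 9.9% of all probes. All 4 are in the brightest class, where the median slope after subtraction was 1.34, with quartiles of 1.31 and 1.37. Slopes of this size were thus common among bright probes and are not particular to these enzymes. With the lowest probe as background, probe 2378 was the one of the 7 that passed (limma adjusted p = 0.0425), against 6.85% of all probes. The intervals of probe 2957 (0.95 to 1.44) and CYP51A1 (0.59 to 1.22) included 1. ADH6 lay below 1 (limma adjusted p = 0.0141), as did 9.83% of all probes, but not without the array of 0.1 µg (limma adjusted p = 0.102).

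Expressed per µg of RNA, the subtracted signal of CYP2E1 was 20890 at 0.1 µg, 15200 at 0.25 µg, 20214 at 1 µg, 91677 at 5 µg and 49213 at 10 µg. The values at 0.1 and 1 µg were close, and that at 5 µg was the highest. Over all probes the median step of the subtracted signal was 1.52-fold from 0.1 to 0.25 µg, for 2.5-fold more RNA. It was 5.54-fold from 2 to 5 µg, again for 2.5-fold more, and 1.13-fold from 5 to 10 µg, for 2-fold more. Per µg, a fall to 0.25 µg, a rise from 2 to 5 µg and a fall to 10 µg were thus also seen in the median of all probes. CYP3A7 gave 156470 at 0.1 µg, 91280 at 0.25 µg, 758940 at 5 µg and 302819 at 10 µg. For ADH5 the value was lowest at 0.25 µg (32716) and highest at 10 µg (167534). The dim CYP27A1 probe was the steadiest, between 3008 and 4644 on the 6 arrays from 0.25 µg upward, against 1720 at 0.1 µg. CYP51A1 was lowest at 1 µg (632.6) and highest at 5 µg (2459).

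**Figure D4:**
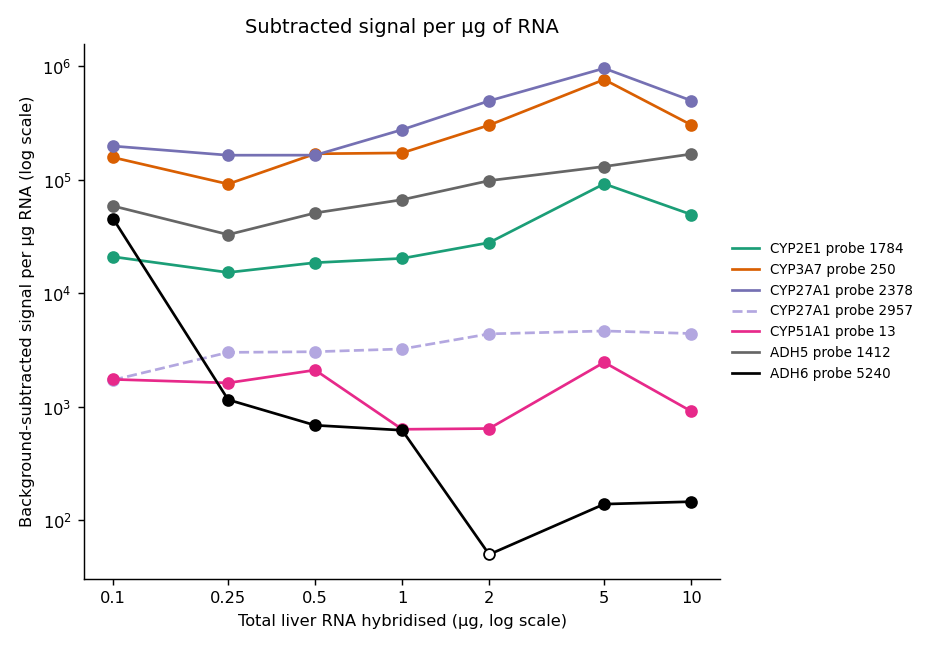
Signal after subtraction of the lower percentile of 1 of each array, divided by the amount of RNA (log scale), for the 7 probes; the open point is ADH6 at 2 µg, set to the floor of 100 units. A level line is signal in proportion to RNA. Probe 2957 of CYP27A1 came nearest to one from 0.25 µg on, but went from 3008 per µg there to 4644 at 5 µg, against 1720 at 0.1 µg.

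The 2 probes of CYP27A1 were compared through the ratio of their signals on the same array. Probe 2378 over probe 2957 read 14.0 at 0.1 µg, 26.9 at 0.5 µg, 90.8 at 2 µg, 177 at 5 µg and 104 at 10 µg. The log2 ratio rose by 0.55 per doubling of RNA (exact two-sided permutation p = 0.00278 over all pairings, 1 pair compared). Probe 2378 is in the brightest class and probe 2957 in class 8, where the unscaled slopes had medians of 1.28 and 0.79. A rising ratio before subtraction is therefore usual for probes of these classes and is not particular to CYP27A1. After subtraction of the background the ratio was 115 at 0.1 µg, 53.8 at 0.5 µg, 205 at 5 µg and 112 at 10 µg, with a slope of 0.15 (exact two-sided permutation p = 0.225). The value at 0.1 µg divides by a probe only 172 units above the background, and without that array the subtracted ratio rose by 0.31 per doubling (exact two-sided permutation p = 0.05), from 54.4 at 0.25 µg. The slope of the subtracted ratio was thus positive with and without the array of 0.1 µg, but in neither case was p under 0.05. It was lowest without the array of 5 µg (0.082, exact two-sided permutation p = 0.474). A widening of the ratio after subtraction was therefore not established.

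Relative to the array median, the profiles of CYP2E1, CYP3A7, ADH5 and probe 2378 of CYP27A1 were alike, with Pearson r between 0.957 and 0.987 over the 7 arrays. ADH6 had r between -0.913 and -0.844 with these 4. The arrays are shared by all probes, and among 3345 probes of other genes 605 had r above 0.95 with CYP2E1, so such values are common here. The nearest profiles to CYP2E1 were those of ENTPD1, RUBCN and CERS4 (r from 0.999 to 1.000), and to CYP3A7 those of LYSMD2, EDNRB and TNFRSF25 (0.998 to 0.999). For ADH5 they were NCOA1, LAMC1 and ARNT2 (0.998 to 0.999). Those nearest to probe 2378 were MAP4K1, MRPS12 and NCAPD3 (each 0.999), and to probe 2957 MPHOSPH10, ORC2 and RING1 (0.985 to 0.995). CYP51A1 had no probe above 0.95, with APC, GRSF1 and C6orf89 nearest (0.929 to 0.942), and ADH6 had 3, DECR1, SIVA1 and CXCL12 (0.950 to 0.962).

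**Figure D5:**
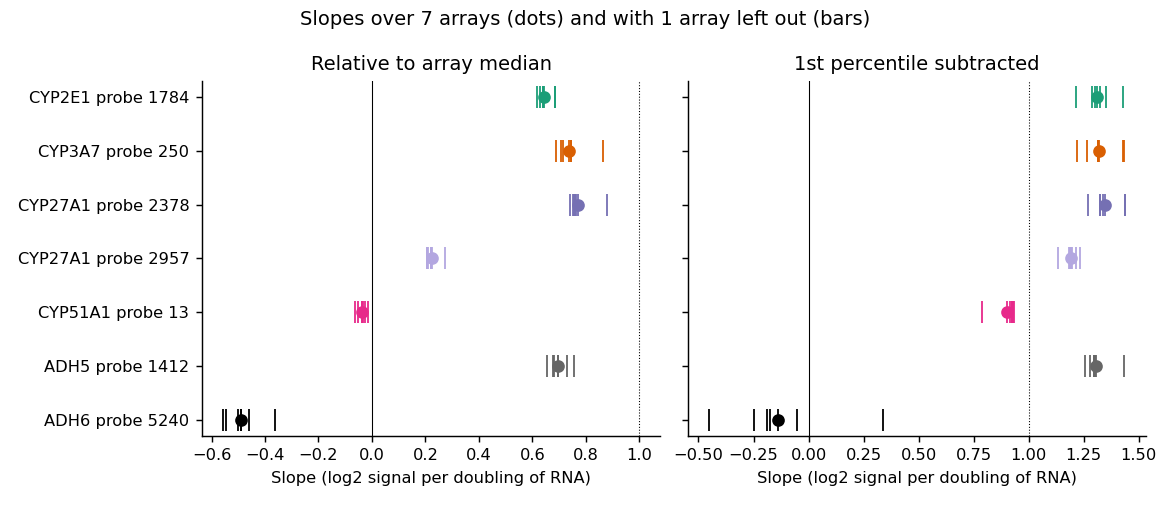
Slopes over all 7 arrays (dots) and with each array left out in turn (bars), relative to the array median and after subtraction of the lower percentile of 1; the solid line marks 0 and the dotted line 1. The bars of ADH6 spread from -0.56 to -0.36 on the left and from -0.45 to 0.34 on the right, while those of CYP2E1 stay between 0.62 and 0.69 and between 1.22 and 1.43.

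Other genes of the same pathways were described relative to the array median, with 33.9% of all probes rising, 30.9% falling and a median slope of 0.01 as background. Of the 38 probes of 6 lists 14 rose and 8 fell. Across the array such slopes follow mean signal, so these counts say little about the pathways. At 10 µg every rising gene named from these lists read above the array median of 16151.5, and every falling one below it. With the 75th percentile 2 rose and 20 fell, where 15.4% and 57.9% of all probes did, and with quantile normalization, cyclic loess or the median absolute deviation 0 rose and 0 fell by limma (3, 0 and 2 rose at an unadjusted p under 0.05, and of all probes 0.0722% rose and 7.02% fell with the deviation), so the counts that follow hold for median centring. Of 7 further probes of P450s and their electron donors 5 rose and 1 fell, with a median slope of 0.19. CYP2B6, a drug-metabolising P450 (0.48 ± 0.05, from 2073 at 0.1 µg to 142016 at 10 µg), and CYP2A6, the nicotine oxidase (0.27 ± 0.06), rose, and CYP39A1, an oxysterol hydroxylase, fell (-0.20 ± 0.05, from 1447 to 5859). Of 7 probes of alcohol and aldehyde oxidation 3 rose and 1 fell, with a median of 0.06. ADH1B, a main ethanol-oxidising dehydrogenase, rose by 0.32 ± 0.08 and ESD, an esterase that acts after ADH5 in formaldehyde removal, by 0.21 ± 0.04, while ALDH6A1, an aldehyde dehydrogenase of valine breakdown, fell (-0.23 ± 0.06).

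In sterol synthesis, the pathway of CYP51A1, 4 of 10 probes rose and 2 fell, with a median of 0.15. FDPS, which makes farnesyl diphosphate (0.46 ± 0.06), and PMVK, a mevalonate pathway kinase (0.25 ± 0.05), rose. HSD17B7 (-0.21 ± 0.05) and INSIG2, a sterol sensor of the endoplasmic reticulum (-0.14 ± 0.04), fell. Of 3 probes of bile acid synthesis and transport, the pathway of CYP27A1, 0 rose (limma, also 0 at an unadjusted p under 0.05) and 1 fell, namely BAAT, which joins bile acids to glycine or taurine (-0.17 ± 0.05). Among 8 probes of other drug metabolism NNMT, a nicotinamide methyltransferase, rose (0.19 ± 0.04) and CES2, a carboxylesterase, fell (-0.24 ± 0.06). Among 3 probes of transcription factors of hepatic P450 genes ARNT, the partner of the dioxin receptor, rose (0.27 ± 0.05), and VDR, the vitamin D receptor (-0.19 ± 0.07), and FOXA3 (-0.24 ± 0.06) fell. All of these had limma adjusted p of at most 0.0237. After subtraction 0 of the 38 lay above a slope of 1 (limma, adjusted, and 1 at an unadjusted p under 0.05), where 0.722% of all probes did. Below it lay 3, namely ALDH6A1, HSD17B7 and CES2, against 9.83% of all probes. In simulated data the test found 0% of changed probes of the brightest class at a mean fitted slope of 1.257. It found 54% there at 1.497 and 100% at 1.994. In the other classes it found 0% at 1.144 and 1.293, and 12% at 1.585. The count of 0 therefore says little about slopes slightly above 1, or about probes outside the brightest class.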

How the data were processed

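Intensities of 5544 probes on each of 7 arrays were used as deposited. The labels' protocols do not give how the membranes were scanned or whether background was removed, and the unit of the scanner is unknown. The array medians differ, so they had not been set equal, and the lowest signal of each array was 1252 or above. Whether another scaling or a subtraction had been applied is not known. Probes were named by the platform annotation, with 1 symbol for 3346 probes, several for 95 and none for 2103.

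Here log2 signals were fitted on log2 amount over all probes with limma 3.58.1 (R 4.3.3, lmFit and eBayes), with Benjamini-Hochberg adjustment at 0.05, without scaling, after subtraction of the array median, and after subtraction of each array's lower percentile of 1 with a floor of 100 units. Other values came from Python 3.11.15 with numpy 2.4.6, scipy 1.17.1 and pandas 2.3.3. The scripts were tested on simulated data. The genes, lists and tests were chosen with earlier results of these data known. Genes named are all probes of the 6 enzymes, for each of these the 3 probes of other genes with the highest Pearson correlation, and in each pathway list up to 2 probes called in each direction with the smallest p. Alternatives were other scalings, backgrounds, floors and filters, a variance trend and arrays left out. The exact permutation of slopes over all pairings of arrays and amounts was added after the data were seen.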

Additional observations from a re-analysis of the deposited data

How the results depend on the processing

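Leaving out each array in turn gave 6 to 7 rising probes without scaling (0 falling), 5 rising and 1 falling relative to the array median, 6 rising and 0 falling after subtraction, and 0 above and 0 to 1 below a slope of 1. Over all 5544 probes the same fits gave 5424 to 5535 rising without scaling (0 falling). Relative to the array median 1638 to 2023 rose and 1358 to 1810 fell. After subtraction 4915 to 5232 rose and 0 to 5 fell, and 0 to 28 lay above and 46 to 806 below a slope of 1. The slope of the CYP27A1 ratio ranged from 0.49 to 0.67. It was 0.15 after subtraction of the background, and then, in an alternative chosen after seeing the data, between 0.082 and 0.31 with each array left out, the highest without 0.1 µg (0.11 without 0.25, 0.13 without 0.5, 0.082 without 5 and 0.20 without 10 µg). Relative to the array median, the number of rising probes was 0 with quantile normalization, cyclic loess and the median absolute deviation, where 0%, 0% and 0.0722% of all probes rose. The number falling was 0 with quantile normalization and cyclic loess (0% of all probes) and 4 with the deviation (7.02%). It was 2, ADH6 and CYP51A1, with the 75th percentile (57.9%) or with the median of each of 2 parts of the probe numbers (25.2%). In the upper 50% of probes 5 of the 7 were measured, ADH6 not among them, so 0 fell and 0 lay below a slope of 1. Among all 2772 probes of that set 0 fell and 0 lay below 1 too.

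After subtraction 1 probe, ADH6, fell without 5 and 10 µg together (0.0902% of all probes), and when the array median was taken away 1 fell and 4 rose in place of 6 (11% and 19.4% of all probes). A variance trend put 4 probes above a slope of 1 (9.9% of all probes), and the lowest probe as background 1 (6.85%). Among probes that had passed relative to the array median, slopes changed direction with quantile normalization for CYP3A7 (-0.039), ADH5 (-0.034), CYP2E1 (-0.014) and CYP27A1 probe 2378 (-0.021). They also did so with cyclic loess for CYP3A7 (-0.055) and both CYP27A1 probes (-0.053 and -0.0091), and with the 75th percentile for CYP27A1 probe 2957 (-0.00075). With the deviation, in units of it, they did so for CYP3A7 (-2.26), ADH5 (-1.30), CYP2E1 (-0.56) and CYP27A1 probe 2378 (-2.54). The slope of CYP51A1, which had not passed, also changed sign, to 0.014 with quantile normalization and 0.019 with the deviation, and did not pass there either. The cause of these changes was not tested. The exact permutation of slopes changed no call of the 7 probes. No paired analysis was possible because each amount has 1 array. Signals of ADH6 and CYP51A1 near the background limit what their slopes can show.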
